A study of Mus musculus with 12 samples.

Results

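Histone genes fall into a replication-dependent and a replacement group, and both were followed here through RNA immunoprecipitation sequencing (RIP-seq) of YTHDF2, a protein that binds RNA carrying N6-methyladenosine. The replication-dependent group was every gene whose GENCODE symbol starts with Hist1h, Hist2h, Hist3h or Hist4h, which gave 70 genes: 6 of class H1, 20 of H2A, 19 of H2B, 12 of H3 and 13 of H4, with 3 pseudogenes among them. The replacement group was H2afz, H2afx, H2afv, H2afy, H3f3a, H3f3b, H1f0 and H1fx. Together these were 78 of the 54446 genes in the count tables. The family was selected on measured values: in an earlier look at the same libraries, Hist1h4j, Hist1h3i and Hist1h3f had risen most in IP over Input after IR. That contrast is therefore given as a description, and those 3 genes get no p-value in any comparison. Counts over the family include them unless stated otherwise. All comparisons drew on the same 12 libraries as that contrast. The contrast joins the IR change in the Input, the IR change in the IP and IP over Input in Ctrl and in IR. Counts and p-values of those comparisons are therefore not independent of the selection, with or without the 3 genes.

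The cells were CD11b+ and therefore myeloid, and they had been sorted out of tumors that MC38, a colon carcinoma line of the mouse, formed under the skin of WT mice (Ythdf2 fl/fl without Cre, both sexes, 8 to 10 weeks old). IR tumors had received 20 Gy locally 3 days earlier, and Ctrl tumors had received none. Each condition had 3 pools of cells, each from 5 mice. From the lysate of every pool, a portion was set aside as Input, the reference for transcript levels. What remained went into the YTHDF2 pull-down, called the IP. The study calls the pools technical replicates, so p-values measure the spread between pools and not between single mice. The Ctrl and IR pools came from different mice, whereas the IP and the Input of 1 pool shared a lysate.

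Replication-dependent histone mRNAs are made mainly in S phase, when new DNA has to be packed into nucleosomes, and they decay when DNA synthesis stops. Nearly all of them lack introns and a poly(A) tail. Their mRNA ends shortly after a conserved stem-loop, which the protein SLBP holds during processing, export and translation. Replacement histones are made through the whole cell cycle from mRNAs that carry a poly(A) tail, and most of their genes have introns. H2afx is known to give both a stem-loop form and a poly(A) form.

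The stem-loop was looked for in the annotated transcripts because it is the element that sets the replication-dependent mRNAs apart. It was found in 44 of the 70 replication-dependent genes and, of the replacement genes, in H2afx alone. Of the other 21826 genes with a protein-coding transcript, 3 carried it (0.0137%). A stem-loop past the end of an annotated transcript could not be found, and some annotated member transcripts are short (411 bases in Hist1h3i, 381 in Hist1h2bn). Examples from each class are shown 5′ to 3′ with 5 flanking bases on either side. The 16 bases of the stem-loop are in capitals, and the coordinates are those of GRCm38/mm10.

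Hist1h1c (chr13:23739507-23739532, + strand): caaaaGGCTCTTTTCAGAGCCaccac
Hist1h2ao (chr13:21810893-21810918, + strand): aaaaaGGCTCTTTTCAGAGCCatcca
Hist1h2bb (chr13:23747198-23747223, + strand): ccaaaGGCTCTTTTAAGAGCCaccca
Hist1h3f (chr13:23544927-23544952, + strand): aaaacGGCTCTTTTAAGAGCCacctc
Hist1h4d (chr13:23581945-23581970, + strand): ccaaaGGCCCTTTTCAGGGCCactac
Hist1h4i (chr13:22040961-22040986, - strand): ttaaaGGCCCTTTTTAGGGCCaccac
H2afx (chr9:44335235-44335260, + strand): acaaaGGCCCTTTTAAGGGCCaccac

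All 10 H4 genes with the element, and H2afx, had stems of the GGCC kind. All 34 others, from classes H1, H2A, H2B and H3, had stems of the GGCT kind. A poly(A) signal (AATAAA or ATTAAA) lay in the last 40 bases of an annotated transcript of 17 replication-dependent genes, and 13 of these also carried the stem-loop. Hist1h1c, Hist1h4i and H2afx were among the genes with both.

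RefSeq promoters (GRCm38 coordinates) were matched for 62 replication-dependent genes and searched over the 250 bases before the start. The octamer ATTTGCAT, read on both strands, was present in 14 of them (22.6%) against 1.60% of all 32851 promoters. These were 7 of 18 H2A promoters and 7 of 16 H2B promoters, and it was in none of the H1, H3 and H4 promoters. The motif CCAAT, on either strand, was present in 82.3% of the replication-dependent promoters against 33.8% of all, and it was in every H1, H2A and H2B promoter, in 8 of 10 H3 promoters and in 3 of 12 H4 promoters. The letters TATAAA, again on either strand, were in 46.8% against 12.4%. The 150 bases before the start of an H2B and an H4 gene show the difference in the octamer alone. Both also hold CCAAT (on either strand) and TATAAA, and Hist1h4d is 1 of the 3 H4 promoters with CCAAT. Capitals mark the octamer and these other motifs on either strand.

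Hist1h2bb (chr13:23746584-23746733, + strand): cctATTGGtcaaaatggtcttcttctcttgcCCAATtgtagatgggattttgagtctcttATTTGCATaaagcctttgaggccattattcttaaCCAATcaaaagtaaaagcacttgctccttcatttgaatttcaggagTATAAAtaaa
Hist1h4d (chr13:23581418-23581567, + strand): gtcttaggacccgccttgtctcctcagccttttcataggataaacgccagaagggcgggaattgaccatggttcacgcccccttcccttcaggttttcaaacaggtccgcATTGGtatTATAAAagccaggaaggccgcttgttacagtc

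The genes sit close together in the genome. Chromosome 13 held 56 of the replication-dependent genes, chromosome 3 held 10, chromosome 11 held 3 and chromosome 6 held 1. The protein-coding ones on chromosome 13 lay between 21715763 and 23934851 (54 members), a span that also holds 49 other protein-coding genes. Of the 70 replication-dependent genes, 65 are annotated with a single exon block.

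The libraries held 27852948 to 42382532 counted reads each. Of the uniquely aligned reads, 24.6% to 27.0% fell on no gene in the Inputs, 41.8% to 42.7% in the Ctrl IPs and 49.4% to 54.1% in the IR IPs. Reads with several alignments were 2.63% to 5.01%. The myeloid markers (Itgam, Ptprc, Lyz2, Csf1r, Cd68, Tyrobp, Fcer1g, S100a8 and Csf3r) were all detected, and their summed level was 7160 to 7701 CPM (counts scaled to a common library size) in the Ctrl Inputs and 9460 to 9629 CPM in the IR Inputs. The summed markers of T, B and NK cells, fibroblasts, endothelial and erythroid cells reached at most 28.4 CPM for any type in an Input, whereas the 5 markers of epithelial tumor cells summed to 122 to 129 CPM in the Ctrl Inputs and 93.1 to 98.0 CPM in the IR Inputs. Cdh1 alone gave means of 121 and 90.1 CPM of these sums, Epcam was at 4.72 and 6.04 CPM, Krt8 and Krt18 were under 0.3 CPM in every Input, and Krt19 was under 3 counts in every library. The part of these shifts in the histone values was not tested.

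Summed over the 70 genes, the replication-dependent histones stood lower in the Input after IR, while their IP sums did not fall. The sum was 1054, 1066 and 1064 CPM in the Ctrl Inputs and 366, 347 and 348 CPM in the IR Inputs, a ratio of 0.333. In the IP it was 241, 251 and 266 CPM in Ctrl and 256, 269.6 and 305 CPM in IR, which overlap. The Input sums of Ctrl and IR lay far apart in relation to their spread (SD 6.27 and 10.5 CPM, n = 3 each). As plain shares of the counts, these genes took 0.106% in the Ctrl and 0.0330% in the IR Inputs (means of 3). In the IPs the shares were 0.0234%, 0.0239% and 0.0251% in Ctrl and 0.0294%, 0.0303% and 0.0336% in IR, so that without TMM scaling every IR IP stood above every Ctrl IP.

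The 8 replacement genes behaved otherwise. They summed to 1989.5, 2028 and 2016 CPM in the Ctrl Inputs and to 2153, 2104 and 2135 CPM in the IR Inputs. This difference was small, and scaling by library size alone turned its direction (log2 ratio 0.083 with TMM scaling and -0.014 by library size). In the IP the sum was 1629.8, 1692 and 1654 CPM in Ctrl and 1193, 1167 and 1229 CPM in IR, so here the IR libraries were the lower ones (log2 ratio -0.47). By library size this ratio was -0.24. Without the 5 members that overlap another gene (H1f0, H1fx, H2afx, H2afy and H3f3a) the ratio was -0.074.

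**Figure D1:**
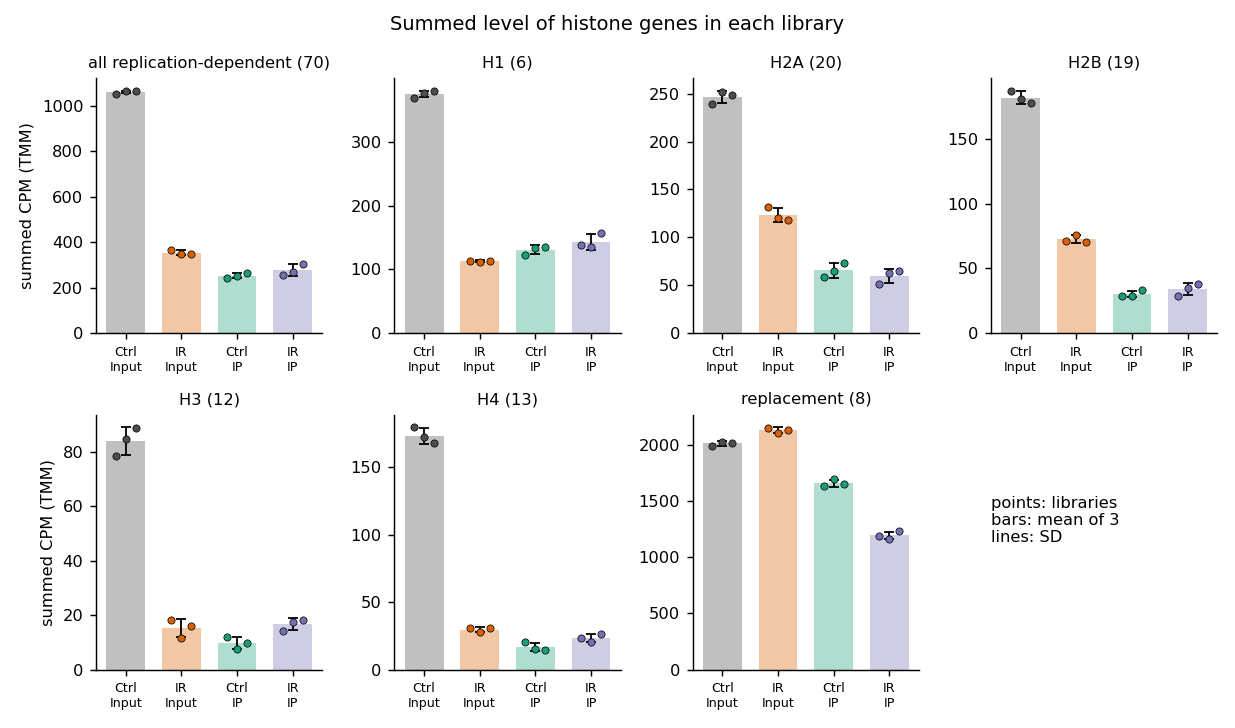
Summed CPM (scaled by TMM over all 12 libraries) of all replication-dependent genes, of each class and of the replacement genes. Points are the 3 libraries of each group, bars are means and lines are SD. In every replication-dependent class the Ctrl Inputs were the highest libraries, whereas the replacement genes were highest in both Inputs.

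Each class showed the fall, but to a different degree. Summed H4 genes went from a mean of 173 ± 5.84 CPM in the Ctrl Inputs to 29.8 ± 1.55 CPM in the IR Inputs (SD, n = 3), a ratio of 0.172, and H3 genes from 83.9 ± 5.02 to 15.3 ± 3.35 CPM, a ratio of 0.182. The ratio was 0.300 for H1, 0.399 for H2B and 0.500 for H2A. In the IP, the sums of IR over Ctrl gave ratios of 1.1 for H1, 0.911 for H2A, 1.13 for H2B, 1.71 for H3 and 1.39 for H4.

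Gene by gene, the fall in the Input was nearly general. Of the 65 replication-dependent genes tested, 57 fell, 2 rose and 6 did not pass, and without the 3 selected genes 54 of 62 fell (edgeR's quasi-likelihood test, Benjamini-Hochberg adjusted p under 0.05 over all genes). Over all 16914 genes tested, 23.9% fell and 21.0% rose. The median log2 fold change of the 65 was -2.65, a 6.27-fold lower level, against 0.0072 over all genes. Lower by at least 4-fold were 45 of the 65, a share that was not counted over all genes. With 1 replicate left out, 53 to 55 fell. The Input change is a part of the contrast on which the family was selected, so these counts are not independent of the selection. The 5 untested genes had too few counts, and 3 of the 70 had under 3 counts in every library. Since a gene can pass the filter through its high group alone, the 56 genes with at least 10 counts in all 6 Inputs were also counted: 52 fell, 2 rose and 2 did not pass, with a median of -2.64. In these bulk samples, fewer cells that make these mRNAs and less of them per cell cannot be told apart. Whether RNA without a poly(A) tail was recovered alike in the Ctrl and IR Inputs was not tested.

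The H1 genes encode linker histones, which bind DNA between nucleosomes. Hist1h1b (chromosome 13, 21779883 to 21780625, minus strand) stood at 33.6, 37.3 and 34.8 CPM in the Ctrl Inputs and at 4.29, 4.69 and 4.31 CPM in the IR Inputs. It fell 8.40-fold (log2 fold change -3.07 ± 0.089 (SE), adjusted p = 5.83e-20), and no IR library came near a Ctrl library. Hist1h1d was at 82.4, 83.6 and 84.4 CPM in the Ctrl Inputs and 13.2, 11.2 and 12.8 CPM in the IR Inputs, and it also fell (log2 fold change -2.83 ± 0.06 (SE), adjusted p = 3.6e-23). Hist1h1e went from 89.1, 93.1 and 93.7 to 12.6, 15.3 and 11.8 CPM (log2 fold change -2.88 ± 0.068 (SE), adjusted p = 5.1e-22). Hist1h1c, which took the most reads of any replication-dependent gene in every group, fell less. It was at 151, 149 and 152 CPM in the Ctrl Inputs and 82.1, 78.6 and 83.5 CPM in the IR Inputs (log2 fold change -0.96 ± 0.038 (SE), adjusted p = 4.64e-17).

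The H2A genes, which encode a core histone that pairs with H2B, split into genes with strong and with slight falls. Of 18 tested, 16 fell and 1 rose (23.9% and 21.0% of all genes), with a median log2 fold change of -1.15. Hist2h2ac on chromosome 3 was among the strong ones, at 29.5, 30.6 and 28.6 CPM in the Ctrl Inputs and 4.79, 4.64 and 4.11 CPM in the IR Inputs (log2 fold change -2.79 ± 0.095 (SE), adjusted p = 1.59e-18). Hist1h2ak was intermediate, at 26.8, 28.3 and 30.2 CPM and 14.3, 13.4 and 11.3 CPM (log2 fold change -1.21 ± 0.087 (SE), adjusted p = 7.91e-12). Hist1h2ao and Hist1h2ap, which share 93.5% and 93.1% of their 50-base windows with each other, fell slightly. Hist1h2ao went from 56.2, 59.2 and 52.8 to 41.7, 40.2 and 39.2 CPM (log2 fold change -0.55 ± 0.054 (SE), adjusted p = 3.32e-09), with no overlap between the groups. Hist1h2ap went from 28.4, 37.7 and 38.0 to 28.3, 23.7 and 24.9 CPM (log2 fold change -0.52 ± 0.085 (SE), adjusted p = 1.34e-05), and the lowest Ctrl library stood just above the highest IR library. The single H2A gene that rose was Hist3h2a (log2 fold change 0.69, from 2.93 ± 0.469 to 5.0 ± 0.210 CPM), named after its values were seen because it was the exception.

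All 20 H2A genes overlap an annotated gene on the opposite strand, and the strand setting of the read counting is not given in the sources used here, so reads of both partners may have been left out or merged. Over all classes, 26 replication-dependent genes overlap the exons of another gene, and their median log2 fold change in the Input was -2.08 against -2.75 for the 44 that overlap none. Near-identical copies matter as well, since reads that align to several genes were not counted. In 36 replication-dependent genes at least 50% of the 50-base windows occur in another gene. Their median was -2.61 in the Input, against -2.66 for the 34 with fewer shared windows. How reads were split between copies was not tested.

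H2B is the partner of H2A in the nucleosome. Of the 18 H2B genes tested, 13 fell and 1 rose (23.9% and 21.0% of all genes), with a median log2 fold change of -2.73. Hist1h2bn was at 27.2, 24.0 and 23.9 CPM in the Ctrl Inputs and at 1.95, 2.93 and 2.59 CPM in the IR Inputs (log2 fold change -3.41 ± 0.12 (SE), adjusted p = 7.16e-18). Hist1h2bb, whose promoter is shown above, went from 24.2, 23.1 and 26.2 to 2.74, 2.46 and 3.14 CPM (log2 fold change -3.21 ± 0.11 (SE), adjusted p = 2.49e-18). In both genes the groups lay far apart. Hist1h2be fell from 26.1, 25.3 and 21.9 to 5.76, 5.03 and 6.82 CPM (log2 fold change -2.13 ± 0.11 (SE), adjusted p = 7.49e-15), with the reservation that its annotated exons overlap those of Hist1h1e on the same strand. Hist1h2bc was the exception of the class. Its Input level was 35.3, 41.1 and 37.6 CPM in Ctrl and 48.9, 53.0 and 45.5 CPM in IR, a rise (log2 fold change 0.29 ± 0.063 (SE), adjusted p = 0.000392) in which all IR libraries exceeded all Ctrl libraries. Hist1h2bc is annotated with 2 exon blocks, and no stem-loop was found in its annotated transcript.

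Among H2A and H2B genes, the 12 with an octamer in the promoter that were tested had a median log2 fold change of -2.73 in the Input, and the 19 without it -2.33. In both sets most genes fell, 11 of 12 and 17 of 19 (23.9% of all genes). The difference between the sets was not tested. Both mix H2A and H2B genes, whose class medians were -1.15 and -2.73.

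H3 and H4 form the core tetramer of the nucleosome. Without the 3 selected genes, all 9 H3 genes tested fell (median log2 fold change -2.59), as did 11 of the 12 H4 genes (median -2.76). Over all genes 23.9% fell. Hist1h3e was at 17.7, 15.9 and 18.6 CPM in the Ctrl Inputs and 3.71, 2.68 and 3.09 CPM in the IR Inputs (log2 fold change -2.54 ± 0.12 (SE), adjusted p = 4.1e-15). Hist1h3c went from 9.76, 12 and 10.7 to 3.13, 1.03 and 1.22 CPM (log2 fold change -2.66 ± 0.23 (SE), adjusted p = 2.17e-10), and Hist1h3d from 5.68, 6.79 and 6.52 to 2.61, 1.82 and 2.51 CPM (log2 fold change -1.53 ± 0.17 (SE), adjusted p = 3.55e-08). None of these had overlapping groups. Hist1h4d, whose promoter is also shown above, was at 60.3, 56.6 and 55.2 CPM in the Ctrl Inputs and 9.16, 6.37 and 7.15 CPM in the IR Inputs (log2 fold change -3.00 ± 0.087 (SE), adjusted p = 5.83e-20). Hist1h4h fell from 18.5, 19.7 and 17.2 to 3.47, 2.21 and 3.60 CPM (log2 fold change -2.65 ± 0.13 (SE), adjusted p = 7.2e-15). Hist1h4f fell from 16.5, 16 and 17.2 to 2.11, 2.57 and 3.32 CPM (log2 fold change -2.71 ± 0.13 (SE), adjusted p = 4.8e-15). Hist1h4i did not pass the test. It stood at 6.11, 6.84 and 5.97 CPM in Ctrl and 5.18, 5.23 and 5.53 CPM in IR (log2 fold change -0.33 ± 0.13 (SE), adjusted p = 0.0511), with all IR libraries below all Ctrl libraries by a small margin, and it passed by library size only (-0.34).

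The 3 genes on which the family was selected had Input levels of the same kind, given without a test. Hist1h4j was at 8.46, 7.08 and 7.83 CPM in the Ctrl Inputs and 0.921, 0.838 and 1.09 CPM in the IR Inputs. For Hist1h3i the values were 12.1, 13.4 and 13.8 and 1.53, 1.87 and 1.60 CPM, and for Hist1h3f 7.73, 8.21 and 8.21 and 1.34, 0.699 and 1.14 CPM. Their log2 fold changes of -3.11, -3.06 and -2.99 lay within the range of the other members, whose lowest was -3.59. Of these 3 genes, Hist1h3f has the stem-loop in its annotated transcript, and Hist1h4j has a poly(A) signal at its annotated end instead. Hist1h3i has neither in its annotated 411 bases.

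Genes with and without the stem-loop in their annotated transcript had like medians in the Input. The median log2 fold change was -2.65 for the 41 genes with it that were tested and -2.63 for the 24 without it. The 15 tested genes with a poly(A) signal at an annotated end had a median of -2.13, against -2.73 for the 50 without. No test was made of these differences, and a gene whose annotated transcript ends before the stem-loop counts here as without it.

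Other genes of the replication programme fell too, but by less. On a list of 29 S phase and proliferation genes, 24 fell in the Input (23.9% of all genes), with a median log2 fold change of -0.38 (1.30-fold). Mki67, a nuclear protein of cycling cells, went from 681 to 699 CPM to 359 to 365 CPM (log2 fold change -1.01 ± 0.029, adjusted p = 5.83e-20). Top2a, the DNA topoisomerase of dividing cells, was at 487 to 494 CPM in the Ctrl Inputs and 499 to 522 CPM in the IR Inputs and did not pass (adjusted p = 0.506), nor did Lig1, the DNA ligase that joins replicated fragments (adjusted p = 0.559). The summed level of the list was 2527 to 2567 CPM in the Ctrl Inputs and 1944 to 1987 CPM in the IR Inputs.

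Short RNAs without poly(A) moved as far as the histone mRNAs. Of 13 listed, 12 were annotated and 8 tested. All 8 fell in the Input (23.9% of all genes), with a median log2 fold change of -2.63 (6.17-fold). Rpph1, Terc and Rnu12 were near the floor. Their means were 0.700, 0.799 and 0.530 CPM in the Ctrl Inputs and 0.0977, 0.183 and 0.0793 CPM in the IR Inputs. Rn7sk, the RNA that holds the elongation factor P-TEFb inactive, went from 1279 to 1345 CPM in the Ctrl Inputs to 239 to 255 CPM in the IR Inputs (log2 fold change -2.49 ± 0.032, adjusted p = 3.78e-28). The signal recognition particle RNAs Rn7s2 and Rn7s1 had log2 fold changes of -2.76 and -2.84. The list summed to 1807 to 1839 CPM in the Ctrl Inputs, 321 to 338 CPM in the IR Inputs, 95 to 97.4 CPM in the Ctrl IPs and 194 to 209 CPM in the IR IPs. These RNAs are not made in S phase alone, and the sample records describe a poly(A) purification before the immunoprecipitation whereas the methods of the study describe total RNA. The part of what these RNAs have in common with the histone mRNAs, the lack of a poly(A) tail, in the fall was not tested.

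**Figure D2:**
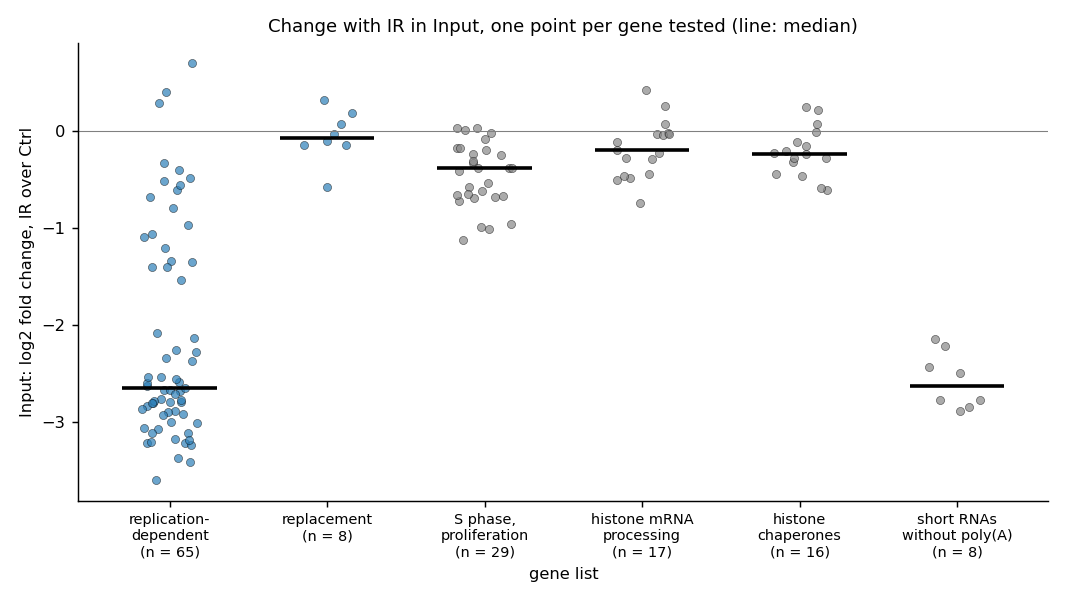
Log2 fold change of IR over Ctrl in the Input (vertical axis), 1 point per gene tested and a line at the median of each list. The replication-dependent genes (n = 65) and the short RNAs without poly(A) (n = 8) have medians of -2.65 and -2.63, whereas the medians of the replacement, S phase, processing and chaperone genes lie between -0.38 and -0.070.

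Of the factors that process and degrade histone mRNA, 17 of 18 listed were annotated, and 9 of these fell and 1 rose in the Input (23.9% and 21.0% of all genes), with a median log2 fold change of -0.20. Slbp, which encodes the stem-loop binding protein, went from 42.1 to 45.4 CPM to 31.9 to 37.3 CPM (log2 fold change -0.44 ± 0.063, adjusted p = 2.04e-06). Eri1, an exonuclease that trims the stem-loop end, fell by 0.48 on the log2 scale (adjusted p = 6.87e-08). Npat, the coactivator of histone gene transcription, fell by 0.50 (adjusted p = 0.000148), and Casp8ap2, a partner of Npat in the histone locus body, fell by 0.28 (adjusted p = 0.000224). Lsm11, a part of the U7 particle that guides the cut of the histone mRNA end, did not pass (adjusted p = 0.892).

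Of 16 histone chaperones, 10 fell and 2 rose in the Input (23.9% and 21.0% of all genes), with a median log2 fold change of -0.23. Both Atrx, which deposits H3.3 in heterochromatin, and Nap1l1, a chaperone of H2A and H2B, rose (log2 fold changes 0.22 and 0.24). Ssrp1, a subunit of the FACT complex, fell by 0.23. Of the other variants, H2afj rose in the Input (log2 fold change 0.58 ± 0.039, adjusted p = 1.71e-12), and Cenpa, the centromeric H3, fell by 0.36 (adjusted p = 9.44e-09). H2afy2, a second macroH2A gene at 0.842 to 1.71 CPM in the Ctrl Inputs, did not pass (adjusted p = 0.812).

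Few genes between the histone genes could be tested. Of the 49 other protein-coding genes inside the span on chromosome 13, 6 were tested in the Input. Of these, 1 fell and 1 rose (23.9% and 21.0% of all genes), and their median log2 fold change was -0.048.

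The next question was how much of these RNAs the YTHDF2 IP recovered. In Ctrl, the replication-dependent genes were depleted from the IP. Of 63 tested, 56 were lower in the IP than in the Input and 1 was higher (53 and 1 of 60 without the 3 selected genes), where 34.6% and 34.1% of all 17416 genes tested were lower and higher. Their median log2 fold change was -3.23, a 9.41-fold lower level in the IP, against 0.018 over all genes. In IR the same comparison gave 7 lower, 6 higher and 45 that did not pass out of 58 tested (7, 5 and 43 of 55 without the selected genes), where 30.4% of all genes were lower and 32.1% higher, and the median was -0.091. With at least 10 counts in all 6 libraries of the comparison there were 40 genes in Ctrl, of which 36 were lower and 1 higher (median -2.53), and 44 in IR, of which 7 were lower and 6 higher (median -0.0068). Of the 56 genes that were lower in Ctrl, 42 did not pass in IR, 7 were lower, 4 were higher and 3 were not tested. IP levels of these genes were low, with a median over genes of 21.2 counts per library in Ctrl and 50.7 in IR, against 268 and 57.8 in the respective Inputs.

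By pool, the summed log2 ratio of IP over Input was -2.13, -2.09 and -2.0 in Ctrl and -0.51, -0.36 and -0.19 in IR. With this scaling the ratio was below 0 in every pool of both conditions, but as plain shares of counts the third IR pool was above it (0.0336% in the IP and 0.0324% in the Input). The classes differed: in IR the summed H1 genes were above 0 in every pool (0.28, 0.28 and 0.48), the H3 genes in 2 of 3 (-0.35, 0.58 and 0.20), and the H2A, H2B and H4 genes in none. For the replacement genes the ratio was -0.29, -0.26 and -0.28 in Ctrl and -0.85, -0.85 and -0.80 in IR. H2afx made up much of their IP sum. Leaving out the members that overlap another gene drops H2afx together with H1f0, H1fx, H2afy and H3f3a. For the rest, H2afv, H2afz and H3f3b, the ratio of the means was -1.94 in Ctrl and -2.14 in IR. The part of each dropped gene was not tested. By library size the ratio of the means was -0.34 and -0.56 over all 8.

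**Figure D3:**
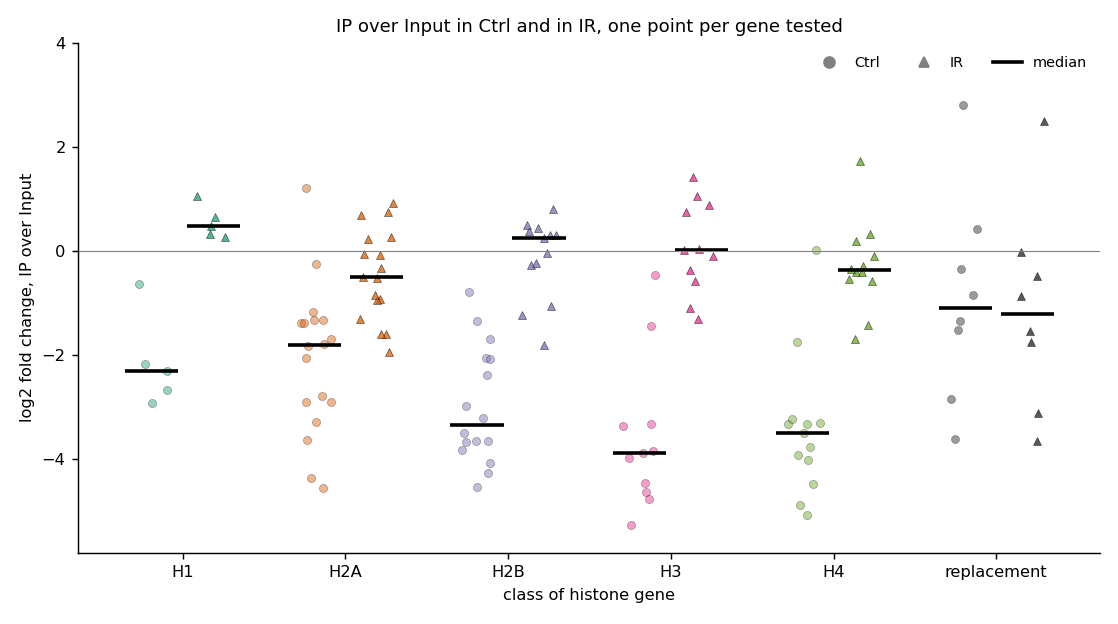
Log2 fold change of IP over Input (vertical axis) in Ctrl (circles) and in IR (triangles), 1 point per gene tested, by class, with a line at each median. In Ctrl most replication-dependent genes lie far below 0 and in IR they spread around 0, whereas the replacement genes keep about the same order in both.

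Setting Ctrl and IR side by side, here and for the other classes, restates the contrast on which the family was selected and is a description. Of the H1 genes, 3 went from below to above their Inputs. In Ctrl all 5 tested were lower in the IP (34.6% of all genes), with a median log2 fold change of -2.30. In IR 3 were higher (32.1% of all genes). Hist1h1e was at 14.2, 25.0 and 16.9 CPM in the Ctrl IPs and 26.9, 23.9 and 24.3 CPM in the IR IPs. Set against its Inputs it was lower in Ctrl (log2 fold change -2.18 ± 0.13 (SE), adjusted p = 1.21e-10) and higher in IR (log2 fold change 1.04 ± 0.14 (SE), adjusted p = 8.21e-05). Hist1h1d was at 11.2, 17.9 and 17.8 CPM in the Ctrl IPs and 13.5, 19.4 and 20.7 CPM in the IR IPs, with log2 fold changes against Input of -2.30 ± 0.12 in Ctrl and 0.65 ± 0.18 in IR (adjusted p = 1.87e-11 and 0.00825). The call in IR was lost without replicate 2 (log2 fold change 0.59). Hist1h1c was at 92.2, 85.8 and 90.4 CPM in the Ctrl IPs and 90.5, 83.5 and 108 CPM in the IR IPs (log2 fold changes against Input of -0.63 ± 0.05 in Ctrl and 0.33 ± 0.09 in IR, adjusted p = 3.81e-09 and 0.00832). In each of the 3 genes the Ctrl and IR IPs overlapped, while the Inputs lay apart. Hist1h1b, at 3.48, 4.03 and 7.84 CPM in the Ctrl IPs and 5.37, 5.21 and 4.17 CPM in the IR IPs, was lower in Ctrl (log2 fold change -2.68 ± 0.20 (SE), adjusted p = 1.72e-09) and did not pass in IR (log2 fold change 0.27, adjusted p = 0.348).

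H2A genes stayed below Input more often than H1 genes by these counts, a difference that was not tested. In Ctrl 15 of 18 were lower in the IP (34.6% of all genes). In IR 6 of 17 were lower and 2 higher (30.4% and 32.1% of all genes). Hist1h2ao had 18.3, 20.8 and 22.3 CPM in the Ctrl IPs and 9.99, 13.9 and 12.6 CPM in the IR IPs. It was lower than Input in Ctrl (log2 fold change -1.33 ± 0.089 (SE), adjusted p = 3.57e-10) and in IR (log2 fold change -1.61 ± 0.13 (SE), adjusted p = 1.47e-06). Hist1h2ap had 10.3, 9.45 and 9.93 CPM and 5.82, 6.44 and 6.09 CPM, again lower than Input in Ctrl (log2 fold change -1.69, adjusted p = 7.35e-10) and in IR (-1.94, adjusted p = 5.51e-07). Hist1h2ak was lower by 2.06 on the log2 scale in Ctrl and by 0.94 in IR (adjusted p = 2.01e-10 and 0.0148), and the call in IR was lost without replicate 1 or without replicate 2 (log2 fold changes -0.59 and -0.69). Hist2h2ac, at 1.58, 2.26 and 4.62 CPM in the Ctrl IPs and 4.32, 3.74 and 6.44 CPM in the IR IPs, was lower in Ctrl (log2 fold change -3.29 ± 0.23 (SE), adjusted p = 8.83e-10) and did not pass in IR (adjusted p = 0.505). Hist3h2a, not among the genes chosen for naming, was the 1 gene higher in the IP in Ctrl (log2 fold change 1.20 ± 0.22, adjusted p = 9.46e-05) and was higher in IR too (0.74 ± 0.20, adjusted p = 0.00838).

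Of the H2B genes, 15 of 16 were lower in the IP in Ctrl and 1 of 13 in IR (34.6% and 30.4% of all genes). That 1 gene was Hist1h2bc, at 14.4, 12.8 and 13.9 CPM in the Ctrl IPs and 14.0, 14.3 and 10.4 CPM in the IR IPs (log2 fold changes against Input of -1.35 ± 0.10 and -1.80 ± 0.14, adjusted p = 9.15e-10 and 7.16e-07). Hist1h2bb had 1.04, 1.02 and 0.843 CPM in the Ctrl IPs and 0.119, 1.77 and 1.37 CPM in the IR IPs, the lowest of these resting on 4 counts. It was lower in Ctrl (log2 fold change -4.53 ± 0.16 (SE), adjusted p = 7.36e-14) and did not pass in IR (log2 fold change -1.24 ± 0.69 (SE), adjusted p = 0.143), where the fit that pairs each IP with its Input made it pass (log2 fold change -1.65), as did no filter (-1.37) and the fit over 12 libraries (-1.29). Hist1h2bn was at 1.74, 1.42 and 1.72 CPM and 1.76, 4.8 and 3.09 CPM (log2 fold change -3.82 ± 0.15 (SE), adjusted p = 3.47e-13 in Ctrl). Hist1h2be was lower in Ctrl by 2.07 on the log2 scale (adjusted p = 3.3e-10) and in IR its log2 fold change was -0.039 (adjusted p = 0.926).

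H3 and H4 genes had the lowest medians in Ctrl. Without the 3 selected genes, 8 of 9 and 10 of 12 were lower in the IP (34.6% of all genes), with medians of -3.88 and -3.64 (H2B -3.35). In IR the medians of the same genes were -0.10 for H3 and -0.40 for H4. Of the 63 genes of all classes tested in Ctrl, 23 had at least 10 counts in every Input but not in every IP. Whether the order of the classes holds among genes with 10 counts in all 6 libraries was not tested. Hist1h4h was at 0.537, 0.527 and 0.659 CPM in the Ctrl IPs and 1.91, 1.32 and 2.47 CPM in the IR IPs, and all IR IPs exceeded all Ctrl IPs. It was lower than Input in Ctrl (log2 fold change -4.89 ± 0.19 (SE), adjusted p = 2.75e-13), and in IR its log2 fold change was -0.58 ± 0.39 (adjusted p = 0.22). Hist1h4d had 3.98, 3.13 and 4.58 CPM in the Ctrl IPs and 4.53, 4.56 and 6.57 CPM in the IR IPs (log2 fold change -3.77 ± 0.12 (SE), adjusted p = 1.36e-14 in Ctrl). Hist1h4f had 1.17, 0.712 and 0.952 and 2.83, 2.27 and 1.72 CPM (log2 fold change -4.01 ± 0.20 (SE), adjusted p = 5.36e-12 in Ctrl). Hist1h3e had 1.90, 1.86 and 0.952 and 2.98, 1.44 and 1.37 CPM (log2 fold change -3.33 ± 0.21 (SE), adjusted p = 1.55e-10 in Ctrl), with overlapping IP groups. Hist1h3c rested on 1 to 20 counts in the Ctrl IPs, at 0.632, 0.0310 and 0.550 CPM. Hist1h4i and Hist1h3d did not pass in Ctrl, with log2 fold changes of 0.022 ± 0.19 and -0.46 ± 0.26 (adjusted p = 0.925 and 0.132). Hist1h3d was lower past the threshold by library size (-0.64) and with no filter (-0.57).

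Of the short RNAs without poly(A), 7 of 8 were lower in the IP in Ctrl (median log2 fold change -4.46) and 4 of 5 in IR (median -1.77), beside -0.091 for the replication-dependent genes in IR. Rpph1, Terc and Rnu12, tested in Ctrl, had means of only 0.0227, 0.291 and 0.0227 CPM in the Ctrl IPs. Of the S phase genes, 20 of 29 were lower and 8 higher in Ctrl, and 20 lower and 3 higher in IR. Over all genes tested, 34.6% were lower and 34.1% higher in Ctrl, and 30.4% lower and 32.1% higher in IR. Among the processing factors, Npat, Lsm11 and Casp8ap2 were higher in the IP in Ctrl (log2 fold changes 1.59, 1.60 and 1.09, adjusted p = 1.98e-11, 3.58e-10 and 7.84e-11) and in IR (1.36, 1.23 and 0.97). Slbp and Eri1 were lower in Ctrl (-0.74 and -1.43). In the 16 chaperones, 3 were higher and 9 lower in Ctrl. Atrx was at 1839.6 to 1893 CPM in the Ctrl IPs against 714 to 729 CPM in the Ctrl Inputs (log2 fold change 1.49, adjusted p = 8.1e-17).

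The IP libraries of both conditions were then compared directly. Of 55 replication-dependent genes tested, 1 rose, 1 fell and 53 did not pass, and the 1 that rose was among the 3 selected genes. Without those 3, 0 of 52 rose and 1 fell. Of all 19255 genes tested, 6.12% rose and 9.85% fell. The median log2 fold change of the 55 genes was 0.46 (0.34 without the 3), against 0.062 over all genes. In 49 of these 55 genes the change in the Input was larger in size than the change in the IP. This share was not counted over all genes, and both changes are parts of the contrast on which the family was selected. Nothing is therefore read from it. The gene that fell was Hist1h2ao (log2 fold change -0.72 ± 0.17 (SE), adjusted p = 0.00964), a call that was lost without replicate 3 (log2 fold change -0.66) and with library size only (-0.51). The gene that rose was Hist1h4j, whose value (log2 fold change 2.06) went into the selection, so nothing is read from its call. Without replicate 1 its log2 fold change was 1.57, and without replicate 2 it was 2.44. Counts of rises depended on the method: DESeq2 gave 8 rises and 2 falls, and 1 fit over all 12 libraries gave 17 and 3. Hist1h1e had a log2 fold change of 0.46 ± 0.19 (adjusted p = 0.111) and Hist1h4h of 1.75 ± 0.66 (adjusted p = 0.0845), both short of the threshold. Hist1h4h passed with DESeq2, by library size and in the fit over 12 libraries (log2 fold changes 1.77, 1.96 and 1.75), and Hist1h1e passed by library size, in the fit over 12 libraries and without replicate 2 (0.66, 0.45 and 0.78). With at least 10 counts in all 6 IPs there were 36 genes, with 1 rise, 1 fall and a median of 0.28. In the same comparison, 14 of the 29 S phase genes fell, while Rn7sk rose (log2 fold change 1.17 ± 0.068, adjusted p = 4.49e-09).

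**Figure D4:**
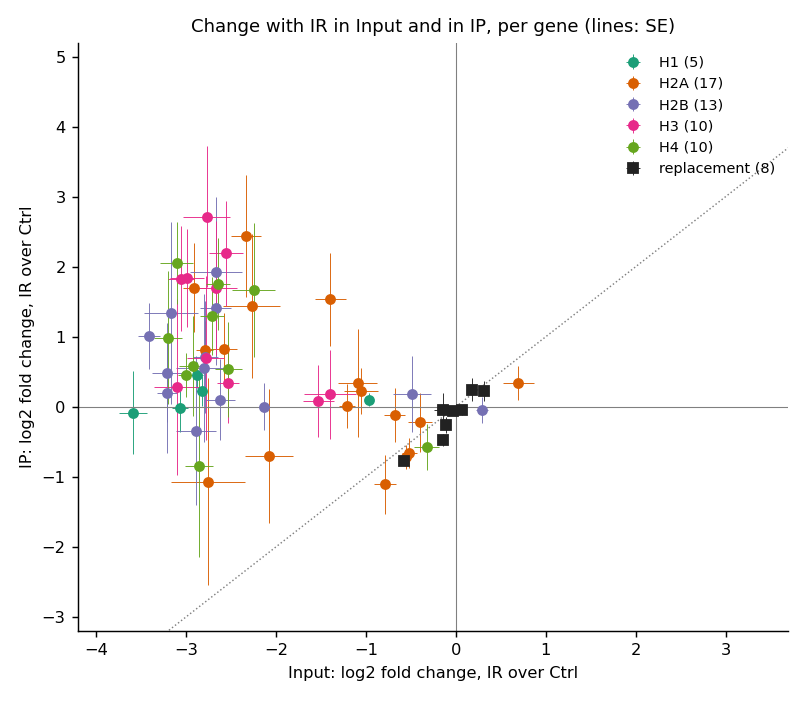
Log2 fold change of IR over Ctrl in the Input (horizontal axis) and in the IP (vertical axis), 1 point per gene tested in both, with SE as lines and equal change as the dotted line. Most replication-dependent genes lie left of -2 in the Input with IP changes scattered around or above 0, and the replacement genes lie near the dotted line.

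The contrast on which the family was selected, the change of IP over Input with IR, joins these values, and it is given as a description. Its median over the 65 replication-dependent genes tested was 3.23 on the log2 scale (all genes -0.083). In this contrast 43 of the 65 were past the threshold as higher, where 6.28% of all 20720 genes were past it as higher and 13.9% as lower, and nothing is read from this count, since the selection was made on it. Hist1h4j had 0.474, 1.05 and 0.586 CPM in the Ctrl IPs and 3.91, 3.09 and 1.63 CPM in the IR IPs, on 15 to 34 and 50 to 131 counts. Its change of IP over Input was 5.08 ± 0.52 (SE), beside a change of -3.11 in the Input and of 2.06 in the IP. Hist1h3i had 0.411, 0.341 and 0.586 CPM in the Ctrl IPs and 2.09, 1.5 and 1.07 CPM in the IR IPs, and its change was 4.81 ± 0.42. Hist1h3f had 0.695, 0.434 and 0.403 and 2.48, 1.24 and 1.66 CPM and a change of 4.74 ± 0.51. Every IR IP exceeded every Ctrl IP in all 3 genes, at levels of 0.341 to 3.91 CPM. The 8 replacement genes had a median of -0.20 in this contrast, and the 8 short RNAs tested a median of 3.07.

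The replacement genes were followed singly. In the Ctrl Inputs, per kilobase of exon, H3f3b (182 CPM per kilobase) and H2afz (180.4) stood highest, then H2afx (105), H3f3a (99.5), H2afy (65.7), H2afv (58.2), H1f0 (49.0) and H1fx (11.3). In the Ctrl IPs H2afx led by far, at 673 CPM per kilobase, with H1f0 next at 60.3. For comparison, Hist1h2ao stood at 117 CPM per kilobase in the Ctrl Inputs and Hist1h1c at 96.4.

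H2afx (chromosome 9, 44334694 to 44336077, plus strand) encodes H2A.X, the variant that is phosphorylated around DNA breaks. It was at 141, 147 and 147 CPM in the Ctrl Inputs and 909, 956 and 927 CPM in the Ctrl IPs, 6.99-fold higher in the IP (log2 fold change 2.80 ± 0.039 (SE), adjusted p = 4.34e-19). After IR it was at 107, 100.1 and 102 CPM in the Inputs and 538, 513 and 550.3 CPM in the IPs (log2 fold change 2.50 ± 0.05 (SE), adjusted p = 2.86e-11). It fell with IR in the Input (log2 fold change -0.57 ± 0.038 (SE), adjusted p = 1.52e-12) and in the IP (log2 fold change -0.77 ± 0.044 (SE), adjusted p = 3.91e-09), and none of the 4 groups overlapped. A predicted gene on the opposite strand, Gm44335, overlaps its exon.

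H2afz and H2afv encode the H2A.Z proteins found at promoters. H2afz was at 323, 319 and 319 CPM in the Ctrl Inputs and 38.6, 41.4 and 43.1 CPM in the Ctrl IPs (log2 fold change -2.85 ± 0.052 (SE), adjusted p = 9.41e-18). In IR it was at 326, 307 and 309 CPM in the Inputs and 29.6, 34.0 and 36.8 CPM in the IPs (log2 fold change -3.11 ± 0.078 (SE), adjusted p = 1.08e-10), so the IP held far less of it in both conditions. H2afv was at 94.8, 94.7 and 95.7 and 121, 125 and 129 CPM in the Ctrl and IR Inputs, a rise (log2 fold change 0.32 ± 0.039 (SE), adjusted p = 1.81e-07) with no overlap between the groups. Its IP levels were 28.2, 38.1 and 37.0 CPM in Ctrl and 34.3, 37.7 and 45.9 CPM in IR, lower than Input in both (log2 fold changes -1.34 and -1.55, adjusted p = 3.33e-10 and 1.59e-07).

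H3f3a and H3f3b both encode H3.3, and their IP levels differed. H3f3a was at 333, 358 and 354 CPM in the Ctrl Inputs and 23.6, 27.6 and 27.5 CPM in the Ctrl IPs (log2 fold change -3.61 ± 0.061 (SE), adjusted p = 3.82e-18), the strongest depletion among the replacement genes. H3f3b was at 533, 547 and 542 CPM in the Ctrl Inputs and 177, 179 and 164 CPM in the Ctrl IPs (log2 fold change -1.52 ± 0.042 (SE), adjusted p = 1.75e-15). In IR the log2 fold changes were -3.66 ± 0.15 and -1.75 ± 0.04 (adjusted p = 3.3e-09 and 6.26e-11). In the IR Inputs they stood at 413, 416 and 423 and 597, 596 and 608 CPM, and H3f3a rose against Ctrl (log2 fold change 0.18 ± 0.031 (SE), adjusted p = 2.51e-05), a call that was lost in the fit over all 12 libraries (0.26). The rise of H3f3b (log2 fold change 0.074 ± 0.028, adjusted p = 0.0357) is no larger than the shift of 0.078 between scaling over 6 and over 12 libraries, and the call was lost without replicate 2 or 3 (0.073 and 0.062).

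**Figure D5:**
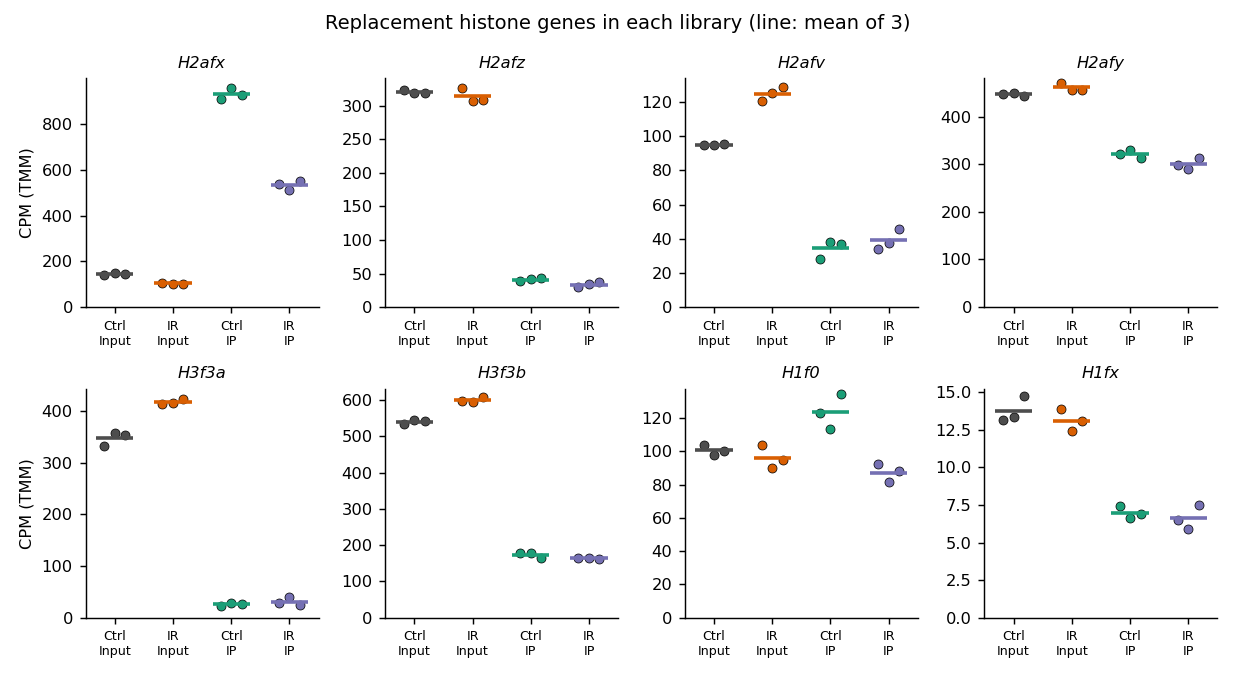
CPM (scaled by TMM over all 12 libraries) of the 8 replacement genes in every library, with a line at each group's mean of 3. H2afx is higher in the IP than in the Input in both conditions, H1f0 in Ctrl alone, and the other 6 genes are lower in the IP.

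H2afy encodes macroH2A1, a large variant found in silent chromatin. It was at 447 ± 3.52 CPM in the Ctrl Inputs and 462 ± 8.64 CPM in the IR Inputs (SD, n = 3) and did not pass (adjusted p = 0.392). In the IP it was at 323, 330.3 and 314 CPM in Ctrl and 299, 291 and 314 CPM in IR, modestly lower than Input (log2 fold changes -0.35 ± 0.038 and -0.49 ± 0.045, adjusted p = 2.2e-07 and 2.93e-06).

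H1f0, the linker histone of cells that have left the cycle, was the other gene higher in the Ctrl IPs. It was at 104, 97.9 and 100.4 CPM in the Ctrl Inputs and 123, 113 and 135 CPM in the Ctrl IPs (log2 fold change 0.42 ± 0.062 (SE), adjusted p = 1.07e-05). In IR it was at 104, 90.2 and 94.8 CPM in the Inputs and 92.3, 81.4 and 88.0 CPM in the IPs, which did not differ past the threshold (log2 fold change -0.019 ± 0.076 (SE), adjusted p = 0.84). Between the IPs it fell with IR (log2 fold change -0.47 ± 0.084 (SE), adjusted p = 0.000956), whereas its Input changed by -0.14 ± 0.046 (adjusted p = 0.0129), a call that was lost without replicate 2 or 3 (-0.13 and -0.14). H2afz also passed in the Input by a small margin (log2 fold change -0.11, adjusted p = 0.00842) and lost the call in the same way (-0.11 and -0.10). H1fx, the least abundant, was at 13.1, 13.4 and 14.8 CPM in the Ctrl Inputs and 7.46, 6.63 and 6.89 CPM in the Ctrl IPs (log2 fold change -0.85 ± 0.14 (SE), adjusted p = 3.01e-05), and its Input did not pass with IR (adjusted p = 0.208).

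Counted together, 3 of the 8 replacement genes rose and 3 fell in the Input (21.0% and 23.9% of all genes), and 4 of these 6 calls, those of H3f3a, H3f3b, H1f0 and H2afz, were lost under an alternative. With IR, 2 fell in the IP (9.85% of all genes). Against Input, 2 were higher and 6 lower in the IP in Ctrl (34.1% and 34.6%), and 1 was higher and 6 lower in IR (32.1% and 30.4%). Their median log2 fold change in the Input was -0.070, against -2.65 for the replication-dependent genes in the same fit.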

How the data were processed

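RIP-seq libraries were made from CD11b+ cells of MC38 tumors with a stranded total RNA kit (SMARTer), 3 Input and 3 YTHDF2 IP libraries in each of Ctrl and IR. Read trimming with Trimmomatic 0.39, alignment with HISAT to mm10 and counting with HTSeq on GENCODE genes were done by the authors, who deposited raw counts without normalization. The strand option of the counting is not given in the sources used here. The methods name another antibody supplier than the sample records, and total RNA where the records name mRNA.

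Symbols, exons and transcripts came from GENCODE M21 on GRCm38, in which 54409 of 54446 identifiers were found (99.9%), and promoters from RefSeq. Members, gene lists and tests were chosen with earlier results of these data known. Named genes were all replacement genes, the 3 genes on which the family was selected, the 4 most abundant genes of each class, 5 processing factors and the 3 most abundant genes of each other list.

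TMM scaling and the quasi-likelihood test were run with edgeR 4.0.16 (R 4.3.3) over every gene that reached 10 counts in 3 or more of the compared libraries, with Benjamini-Hochberg adjustment and a threshold of 0.05. Groups came from the sample titles. The SE of a log2 fold change was its size over the root of its F statistic. Levels are CPM scaled over all 12 libraries, whereas each fold change was fitted on its own 6 libraries, so ratios of levels differ from fitted changes by 0.078 (log2) in the Input and by -0.12 between IP and Input. Sums were given without a test. The edgeR fit was tested on simulated counts. IP and Input of the same number shared a lysate and are paired by design, although their deviations from the group means hardly correlated (-0.0081 to 0.020). DESeq2 1.42.0, other scaling, no filter, protein-coding genes only, the replicate block, a fit over all 12 libraries and leaving out each replicate were the alternatives. Depth limits the IP values of low genes, and duplicate reads cannot be told from separate molecules.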

Additional observations from a re-analysis of the deposited data

Results flagged for a closer look

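In 6 of the named genes IP over Input lay on one side of 0 in every Ctrl pool and on the other side in every IR pool. The difference was not tested for them, since it belongs to the contrast on which the family was selected. Hist1h3f and Hist1h4j were among the genes that led to that selection. How many of all genes changed sides in this way was not counted, so nothing is read from the number. Of the 6, 5 were replication-dependent genes that went from below to above Input. The fitted change of IP over Input with IR was 0.98 for Hist1h1c, 2.97 for Hist1h1d, 3.25 for Hist1h1e, 4.74 for Hist1h3f and 5.08 for Hist1h4j on the log2 scale. H1f0 went the other way, from above to below Input, with a change of -0.42 that was -0.10 by library size and -0.34 without replicate 3. Its mean level ratio in the IR pools (-0.14) is about the offset of -0.12 between scalings, and its fitted value there was -0.019.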

How the results depend on the processing

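Over 10 alternatives, the 30 named histone genes gave 1470 values, of which 1404 kept their side of the threshold and, where they passed, their direction, 33 newly passed, 30 no longer passed and 3 reversed. The reversals were all in the change of IP over Input with IR under library size alone: H2afx 0.029, H2afy 0.19 and H3f3b 0.10. That scaling moved the median of all genes by 0.31 in this contrast, by 0.21 for IR against Ctrl in the IP, by 0.15 for IP against Input in IR and by -0.18 in Ctrl, and calls that were higher went from 31.1% to 76.5% and, in the IP, from 38.3% to 76.3%.

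Among replication-dependent genes in the IP with IR, rises and falls were 8 and 2 with DESeq2, 7 and 0 by library size, and 17 and 3 with all 12 libraries in 1 fit, and the cause was not tested. The fit over 12 libraries gave 13 genes lower in the IP in IR, against 7. Asking for at least 2-fold changes (chosen after seeing the data) left 2 higher in the IP in IR, 0 rises in the Input and 0 falls in the IP, and without the filter 1 gene was lower in the selected contrast. With 1 replicate left out, 3 to 6 genes were higher and 4 to 7 lower in the IP in IR (3 higher without replicate 2, and 4 lower without replicate 1 or 2), 1 to 2 rose in the Input and 0 to 1 fell in the IP (1 and 0 without replicate 3). The replicate block gave 6 higher and 8 lower in IR and 57 falls in the Input and changed the call of Hist1h2bb in IR and of no other named gene.

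The log2 ratios of the summed replication-dependent genes were, by library size, -1.68 in the Input, 0.37 in the IP and -0.086 for IP over Input in IR. With members that overlap no other gene they were -1.71 in the Input and -0.19 for IP over Input in IR. With members of which under 50% of windows are shared (chosen after seeing the data) they were -1.66 in the Input, -1.89 for IP over Input in Ctrl and -0.054 in IR. For replacement genes, library size gave -0.014 in the Input, -0.24 in the IP, -0.34 for IP over Input in Ctrl and -0.56 in IR. Without the overlapping ones, which leaves only H2afv, H2afz and H3f3b, these were 0.12, -0.074, -1.94 and -2.14.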
